A study of Mus musculus with 1 sample.

Results

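The genes described here are 34 genes of the NF-kB pathway and of acute inflammation, chosen by name, of which 33 had a row among the 25661 genes of the count table; Ptgs2 was not analysed here. They were followed in mouse bone marrow cells across 12 gates set by lineage marker genes and across the 5 hashtags (A961 to A965) with which the cells had been labelled before pooling. The clearest pattern was in 2 secreted acute phase proteins: Saa3 stood at 40.1 counts per 1000000 counts (CPM) in A965 against 5.096 in A963, and Lrg1 at 245 against 100.5. The core of the pathway, Nfkbia, Nfkb1 and Rela, lay within 1.5-fold between those hashtags. Most genes of the list were highest in the small nonclassical monocyte or dendritic gates and low in the erythroid gate, which was not counted over all genes. The inflammatory cytokines Il1a and Il6 and the enzyme Acod1 were near 0 in almost all cells.

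NF-kB factors are dimers of the Rel family, held inactive in the cytoplasm by IkB proteins. When a microbial product such as lipopolysaccharide (LPS) or a cytokine such as TNF binds its receptor, the IkB kinase complex marks IkB for destruction and the dimers move to the nucleus. There they switch on inflammatory genes and also their own inhibitors, Nfkbia and Tnfaip3 among them, which end the response; in bone marrow this response accompanies the shift of blood formation towards myeloid cells.

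The library was 1 pool of sorted bone marrow cells from 1 untreated mouse and 1 mouse injected with LPS. It held cKit+Lin- progenitors and GMP-MoPs, a monocyte progenitor population, from both mice, and cMoPs, a second such population, from the untreated mouse alone. The hashtags were borne by PE-streptavidin, and 15000 cells each were loaded for A963 and A965 and 100 each for A961, A962 and A964. The labels give neither the genotype, age or sex of the mice nor the dose and time of LPS, and they do not say which hashtag marks which mouse or sort. No hashtag is therefore called treated or untreated here, and with 1 library and no second sample of any hashtag there was no test and no p-value between them.

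After a filter on genes detected and mitochondrial share, 10528 cells remained. A963 had 4716 of them and A965 5567, while A961 had 68, A962 104 and A964 73. A962 thus kept more cells than the 100 loaded. The small hashtags may hold cells of the large pools, which was not tested. Median counts per cell ran from 20430.5 in A963 to 27801 in A964. The gates held 89.5% of the cells, and 15.8% lay near a threshold; a gate is a range of marker scores and not a cell type. The largest was the secondary granule neutrophil gate with 3300 cells. Kit, the gene of the sorted surface protein, was at 151 CPM in A963 and 132 CPM in A965 in the stem and multipotent gate, but at 15.1 and 2.88 CPM in the secondary granule neutrophil gate, and at 18.7 and 0 CPM in the late neutrophil gate. Xist, which marks the inactive X chromosome, was at 486 CPM in A961, 409 in A962, 611 in A963, 59.7 in A964 and 11.8 in A965. The first 3 were thus high and the last 2 low, but no mouse was assigned from this, and in the comparison of A965 with A963 mouse and any treatment cannot be told apart.

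To show what an NF-kB site in these genes looks like, the 250 bases before the transcription start were read from RefSeq (GRCm38.p6), 5′ to 3′ on the gene's strand; 29 of the 33 genes had an entry. The NF-kB consensus motif, searched on both strands, was in 9 of these 29 genes (Il6, Nfkb2, Nfkbia, Nfkbid, Nfkbie, Rel, Sod2, Tnfaip3 and Tnip1), and in 4.46% of the 27025 genes with an entry. Nfkbia, Rel and Il6 are shown as an inhibitor, a subunit and a cytokine target, with the matched bases in capitals, and Saa3 because its level differed between the hashtags.
Nfkbia (chr12:55492648-55492897, minus strand): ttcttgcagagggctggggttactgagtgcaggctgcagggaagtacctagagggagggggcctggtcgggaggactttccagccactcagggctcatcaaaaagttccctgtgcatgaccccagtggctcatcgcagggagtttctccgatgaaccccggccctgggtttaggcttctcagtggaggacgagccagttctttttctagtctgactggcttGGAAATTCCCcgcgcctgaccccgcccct
Rel (chr11:23770970-23771219, minus strand): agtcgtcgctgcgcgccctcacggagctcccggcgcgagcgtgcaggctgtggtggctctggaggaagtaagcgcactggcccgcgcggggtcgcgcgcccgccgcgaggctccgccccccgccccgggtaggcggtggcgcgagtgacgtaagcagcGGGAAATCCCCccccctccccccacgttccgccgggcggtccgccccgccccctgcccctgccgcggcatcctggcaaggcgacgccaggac
Il6 (chr5:30012864-30013113, plus strand): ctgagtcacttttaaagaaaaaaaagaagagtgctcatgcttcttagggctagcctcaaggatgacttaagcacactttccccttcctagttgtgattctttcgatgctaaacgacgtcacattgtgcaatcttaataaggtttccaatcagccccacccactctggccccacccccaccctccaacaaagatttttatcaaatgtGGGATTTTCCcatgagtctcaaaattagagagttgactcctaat
Saa3 (chr7:46715677-46715926, minus strand): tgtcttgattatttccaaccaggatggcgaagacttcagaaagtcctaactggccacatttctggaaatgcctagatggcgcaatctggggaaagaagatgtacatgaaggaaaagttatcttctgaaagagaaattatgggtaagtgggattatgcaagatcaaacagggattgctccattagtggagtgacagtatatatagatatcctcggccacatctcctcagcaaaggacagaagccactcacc
The match in Nfkbia starts 29 bases before the transcription start and that in Il6 44 bases before it. Rel holds 2 overlapping matches, 92 and 91 bases before the start. A match is a description of letters and not a bound site; the Saa3 window holds none of these letters, which says nothing of the factor.

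Levels across the 12 gates are given first, as CPM over the summed cells of a gate with exact Poisson 95% intervals, which cover counting error only. Of the 33 genes, 15 were highest in the nonclassical monocyte gate, 6 in the conventional dendritic gate, 4 in the late neutrophil gate, 2 in the erythroid gate and 2 in the basophil and mast gate. The lymphoid, megakaryocyte, monocyte and plasmacytoid dendritic gates were the highest for 1 gene each. For 16 genes the intervals of the first and second gate overlapped, so their order was not resolved. The erythroid gate was the lowest of the 12 for 13 genes and among the lowest 3 for 20. These counts of highest and lowest gates were not taken over all genes, so they do not show that the list differs from other genes. The nonclassical monocyte gate held 104 cells, 97 of them from A965, and the late neutrophil gate 206, of which 161 were from A965. These levels are thus largely those of A965. Within A965 alone, over the 10 gates with at least 50 of its cells, 29 of the 33 genes had the same highest gate. That agreement is largely set by the share of A965, and the count for A963 alone is in the closing section. The nonclassical gate also carried a median monocyte score of 0.405 and the conventional dendritic gate one of 0.317. Summed macrophage markers in the conventional dendritic gate were at 490 CPM in A963 and 35.9 CPM in A965. Their part in the levels of that gate was not tested.

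**Figure D1:**
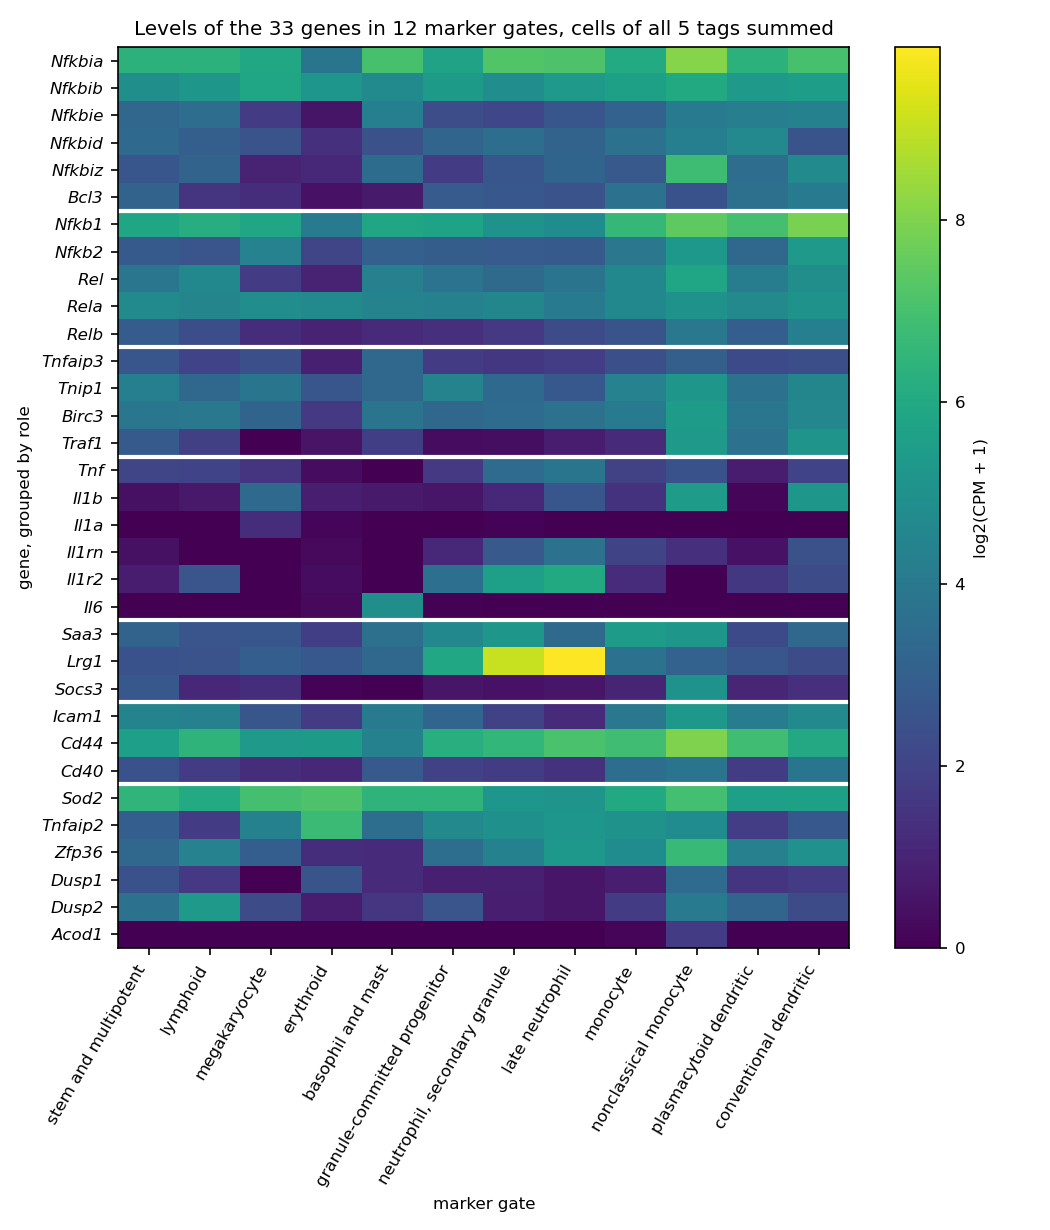
Levels of the 33 genes (rows, grouped by role) in the 12 marker gates (columns), as log2(CPM + 1) over the cells of all hashtags. The nonclassical monocyte and conventional dendritic columns are bright for most inhibitors and subunits, the erythroid column is brightest at Sod2 and Tnfaip2, and Lrg1 is brightest in the late neutrophil gate.

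Among the inhibitors, Nfkbia (IkB alpha, the fast feedback inhibitor) was at 276 (248 to 306) CPM in the nonclassical monocyte gate, 149 in the secondary granule neutrophil gate and 139 in the late neutrophil gate, against 13.3 in the erythroid gate. Its level in the highest gate was 20.7 times (17.9 to 23.8) that in the erythroid gate. Nfkbib (IkB beta) was at 63.3 (50.3 to 78.6) CPM in the nonclassical monocyte gate, 55.5 in the megakaryocyte gate and 48.4 in the monocyte gate, against 36.04 in the erythroid gate, a ratio of highest to erythroid of 1.76 (1.39 to 2.20). Its lowest gate was the basophil and mast gate, at 24.6 (17.4 to 33.8) CPM. Nfkbie (IkB epsilon) was at 19.6 (14.6 to 25.6) CPM in the conventional dendritic gate, 18.1 in the basophil and mast gate and 17.8 in the plasmacytoid dendritic gate, and at 0.485 in the erythroid gate. These 3 classical inhibitors thus had different ranges over the same cells.

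The atypical, nuclear IkB proteins act inside the nucleus on NF-kB bound to DNA. Nfkbiz (IkB zeta), which is needed for a second wave of targets, was at 113 (95.2 to 133) CPM in the nonclassical monocyte gate, 25.2 in the conventional dendritic gate and 10.7 in the plasmacytoid dendritic gate, against 1.12 in the erythroid gate. After thinning each cell to 8800 counts it was found in 49.04% of the nonclassical gate's cells (median depth 11137 counts, 54.8% without thinning) and in 0.7905% of the erythroid gate's (median 41307 counts, 3.29%). Of the 397 Nfkbiz counts in A963, 34 lay in 1 cell. Nfkbid (IkBNS) was highest in the plasmacytoid dendritic gate at 24.04 (20.6 to 27.9) CPM, followed by the nonclassical monocyte gate at 18.5 and the monocyte gate at 11.9, with 1.55 in the erythroid gate. Bcl3, a partner of the p50 and p52 subunits, was at 16.2 (11.7 to 21.8) CPM in the conventional dendritic gate, 12.3 in the monocyte gate, 11.5 in the plasmacytoid dendritic gate and 0.394 in the erythroid gate. The nonclassical gate, where Nfkbiz peaked, held Bcl3 at 4.63 (1.7 to 10.1) CPM.

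Of the subunits, Nfkb1 (p105, the precursor of p50) was at 240 (222 to 259) CPM in the conventional dendritic gate, 173 in the nonclassical monocyte gate and 126 in the plasmacytoid dendritic gate, against 16.5 in the erythroid gate. Nfkb2 (p100, of the noncanonical arm) was at 38.4 (31.3 to 46.6) CPM in the conventional dendritic gate and 37.8 in the nonclassical monocyte gate, whose intervals overlapped, then at 20.1 in the megakaryocyte gate and 3.24 in the erythroid gate. Its partner Relb followed the same first gates, with 18.4 (13.6 to 24.4) CPM in the conventional dendritic gate, 14.7 in the nonclassical gate, 6.69 in the plasmacytoid gate and 1 in the erythroid gate. Rel (c-Rel, the subunit of blood cells) was at 54.8 (42.8 to 69.1) CPM in the nonclassical gate, 28.6 in the conventional dendritic gate, 23.6 in the lymphoid gate and 0.909 in the erythroid gate. Rela (p65, the main activating subunit) was the flattest of the 5. It ran from 15.6 (11.97 to 20.01) CPM in the late neutrophil gate to 33.2 (24.02 to 44.7) in the nonclassical gate, with 31.6 in the conventional dendritic, 28.2 in the megakaryocyte and 25.9 in the erythroid gate. The ratio of its highest gate to the erythroid gate was 1.28 (0.922 to 1.74), an interval that includes 1.

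Of the feedback and adaptor genes, 3 were highest in the nonclassical gate and Tnfaip3 elsewhere. Tnip1, which helps A20 restrain signalling, was at 37.05 (27.3 to 49.1) CPM in the nonclassical gate, 22.2 in the conventional dendritic gate, 20.3 in the granule-committed progenitor gate and 5.21 in the erythroid gate. Birc3 (cIAP2, a ubiquitin ligase of the TNF receptor complex) was at 41.7 (31.3 to 54.4), 22.9 and 15.5 CPM in the nonclassical, conventional dendritic and monocyte gates and at 2.12 in the erythroid gate. Traf1, an adaptor of TNF receptors, was at 38.6 (28.6 to 50.9) CPM in the nonclassical gate, 33.9 in the conventional dendritic gate, 12.2 in the plasmacytoid gate and 0.455 in the erythroid gate. Of the 156 Traf1 counts in A963, 25 lay in 1 cell. Tnfaip3 (A20, the ubiquitin-editing brake) stayed under 10 CPM in every gate, and was highest at 9.07 (4.96 to 15.2) in the basophil and mast gate.

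Cytokine genes were each high in a few gates. Tnf was at 13.3 (9.996 to 17.5) CPM in the late neutrophil gate and 10.1 (9.44 to 10.8) in the secondary granule neutrophil gate, then 4.63 in the nonclassical gate, against 0.242 in the erythroid gate. Il1b was at 41.7 (31.3 to 54.4) CPM in the nonclassical gate, 36.5 (29.6 to 44.5) in the conventional dendritic gate, 9.57 in the megakaryocyte gate and 0.758 in the erythroid gate. In the conventional dendritic gate 55.7% of the Il1b counts lay in 1 cell, and in the nonclassical gate 35.2%. Il6 was at 28.5 (20.7 to 38.3) CPM in the basophil and mast gate, where 21 of 90 cells held 44 of the 58 counts seen in all cells, against 2 of 759 cells of the erythroid gate; its next gates were the erythroid at 0.182 CPM and the granule-committed progenitor at 0.0549 CPM. That gate also had a median granule progenitor score of 0.499.

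The antagonists of IL-1 followed the neutrophil gates. Il1rn, the secreted receptor antagonist, was at 11.8 (8.695 to 15.7) CPM in the late neutrophil gate, 5.83 in the secondary granule gate, 4.51 in the conventional dendritic gate and 0.182 in the erythroid gate. Il1r2, the decoy receptor, was at 63.95 (56.3 to 72.3) CPM in the late neutrophil gate, 47.5 in the secondary granule gate, 11.2 in the granule-committed progenitor gate and 0.242 in the erythroid gate. No count of Il1r2 was seen in the nonclassical gate, where 3 counts would have been 2.32 CPM.

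Of the acute phase genes, Lrg1 (leucine-rich alpha-2 glycoprotein, stored in neutrophil granules and made by the liver) was at 952 (922 to 983) CPM in the late neutrophil gate, 534 in the secondary granule gate and 58.8 in the granule-committed progenitor gate, against 5.64 in the erythroid gate. Saa3 (serum amyloid A3, the form made outside the liver) was at 42.2 (40.2 to 44.2) CPM in the monocyte gate, 36.4 (35.1 to 37.7) in the secondary granule gate and 36.3 (26.7 to 48.2) in the nonclassical gate, and at 2.58 in the erythroid gate. In the late neutrophil gate, where Lrg1 peaked, Saa3 was lower, at 9.82 (6.98 to 13.4) CPM. Socs3, the inhibitor of STAT3 signalling, was at 33.2 (24.02 to 44.7) CPM in the nonclassical gate, 5.67 in the stem and multipotent gate, 1.504 in the conventional dendritic gate and 0.0606 in the erythroid gate.

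The surface proteins had 3 different ranges. Cd44, the hyaluronan receptor, was at 253 (227 to 282) CPM in the nonclassical gate, 133 in the late neutrophil gate, 117 in the monocyte gate and 40.5 in the erythroid gate. Icam1, the ligand of leukocyte integrins, was at 37.8 (27.98 to 50), 24.8 and 21.3 CPM in the nonclassical, conventional dendritic and stem and multipotent gates and at 2.27 in the erythroid gate. Cd40, a costimulatory receptor, was at 13.5 (9.48 to 18.7), 13.1 and 11.01 CPM in the conventional dendritic, nonclassical and monocyte gates and at 1.18 in the erythroid gate.

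Sod2 and Tnfaip2 went the other way from most of the list, with their highest level in the erythroid gate. Sod2, the mitochondrial superoxide dismutase, was at 140 (136 to 144) CPM there, 124 in the megakaryocyte gate and 122 in the nonclassical gate. Tnfaip2, a TNF-inducible gene, was at 107 (103 to 110.5) CPM in the erythroid gate, 35.8 in the late neutrophil gate and 32.6 in the monocyte gate. The cells of the erythroid gate were also the deepest, with a median of 41307 counts.

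Zfp36 (tristetraprolin, which destabilises cytokine mRNAs) was at 99.6 (83.1 to 118) CPM in the nonclassical gate, 38.3 in the late neutrophil gate, 30.8 in the conventional dendritic gate and 1.49 in the erythroid gate. Of the MAP kinase phosphatases, Dusp2 was at 39.2 (32.7 to 46.5) CPM in the lymphoid gate, 16.2 in the nonclassical gate, 12.4 in the stem and multipotent gate and 0.667 in the erythroid gate. Dusp1 was at 10.03 (5.34 to 17.2) CPM in the nonclassical gate, 4.94 in the erythroid gate and 4.61 in the stem and multipotent gate. Acod1, which makes itaconate in activated macrophages, had 10 counts in 7 cells, 3 of them in the nonclassical gate at 2.32 (0.477 to 6.77) CPM.

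Along the gates from granule-committed progenitors to neutrophils, members of the list moved in opposite directions. From the granule-committed to the secondary granule gate Lrg1 stood 9.09 (8.83 to 9.35)-fold higher, Il1r2 4.23 (3.95 to 4.53)-fold and Nfkbia 2.93 (2.83 to 3.03)-fold. Over the same step Nfkb1 stood at a ratio of 0.607 (0.579 to 0.637), Sod2 at 0.424 (0.406 to 0.442) and Icam1 at 0.341 (0.293 to 0.395). Within A963 alone these ratios were 2.98 (2.82 to 3.16) for Nfkbia and 0.687 (0.632 to 0.745) for Nfkb1, and within A965 2.91 (2.78 to 3.03) and 0.568 (0.535 to 0.604). From the granule-committed to the monocyte gate the direction of Nfkb1 was the reverse, with a ratio of 1.804 (1.73 to 1.88), and Cd44 stood 1.62 (1.56 to 1.68)-fold higher. Gates differ in the genes that define them and in depth (median 37024 counts in the granule-committed gate, 22196.5 in the secondary granule gate and 22073 in the monocyte gate), and the part of depth in these ratios was not tested.

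Background was read from genes that bone marrow cells should lack, 7 of 20 such genes having a row; the highest of them set the reference in each hashtag and gate. Over the hashtags, 21 of the 33 genes were above the reference in all 5 and 6 (Il1b, Il1a, Il6, Socs3, Traf1 and Acod1) in none. Over the gates, 7 genes (Nfkbia, Nfkbib, Nfkb1, Rela, Tnfaip2, Cd44 and Sod2) were above it in all 12. Il1a, with 15 counts in 9 cells, was the 1 gene at or below it in every hashtag and gate, and with the median of the background genes as the reference there was none. Il6 was above the reference in the basophil and mast gate alone and Acod1 in the nonclassical gate alone, where the reference was 0. Il1b, Socs3 and Traf1 were at or under the reference in every hashtag sum but above it in 4, 4 and 5 of the 12 gates. The count of 7 was set by the erythroid gate, whose reference of 10.5 CPM alone left those same genes above it. References were also high in the basophil and mast gate (8.42 CPM) and the late neutrophil gate (7.55 CPM). The shares of all genes above these references were not counted.

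In the erythroid gate 26 of the 33 genes were at or below the reference of 10.5 CPM. That reference was set by Gfap, the filament protein of astrocytes, with 348 counts in 164 of 759 cells. Gfap had 373 counts in all cells, so its level there was mostly particular to this gate and may not measure background. The 26 genes are therefore not shown to be at background in it. Gfap also set the reference in A963, at 2.6 CPM, where Apoa2 came next at 1.56. Il1rn, Relb and Dusp1 lay between these levels in A963. The erythroid share of cells with a count served as a second measure, on the untested assumption that free RNA reaches all cells alike. After the thinning, 11 genes had a larger share in all other gates than in the erythroid gate. Among these, Saa3 was found in 1.83% of erythroid cells of A963 and 2.68% of A965. Under that assumption free RNA is a smaller part of the counts in the erythroid gate, whose cells were the deepest (median 41307 counts). A larger share in the other gates therefore does not show that the 11 genes were above background there.

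Between A965 and A963, the 2 hashtags with the most cells, a gene was called when its CPM differed at least 1.5-fold after 10 CPM were added to each, among genes with a mean of at least 10 CPM. Of the 33 genes 14 passed that filter, the last inside being Birc3 and the first outside Nfkbid. Of those 14, 3 were higher in A965 (Saa3, Lrg1 and Il1r2), against 1.86% of the 7697 genes tested, and 0 were lower, against 2.17%. The median log2 ratio was 0.16 over the 14 and -0.04 over all 7697. Ratios below are of plain CPM, without the added 10.

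**Figure D2:**
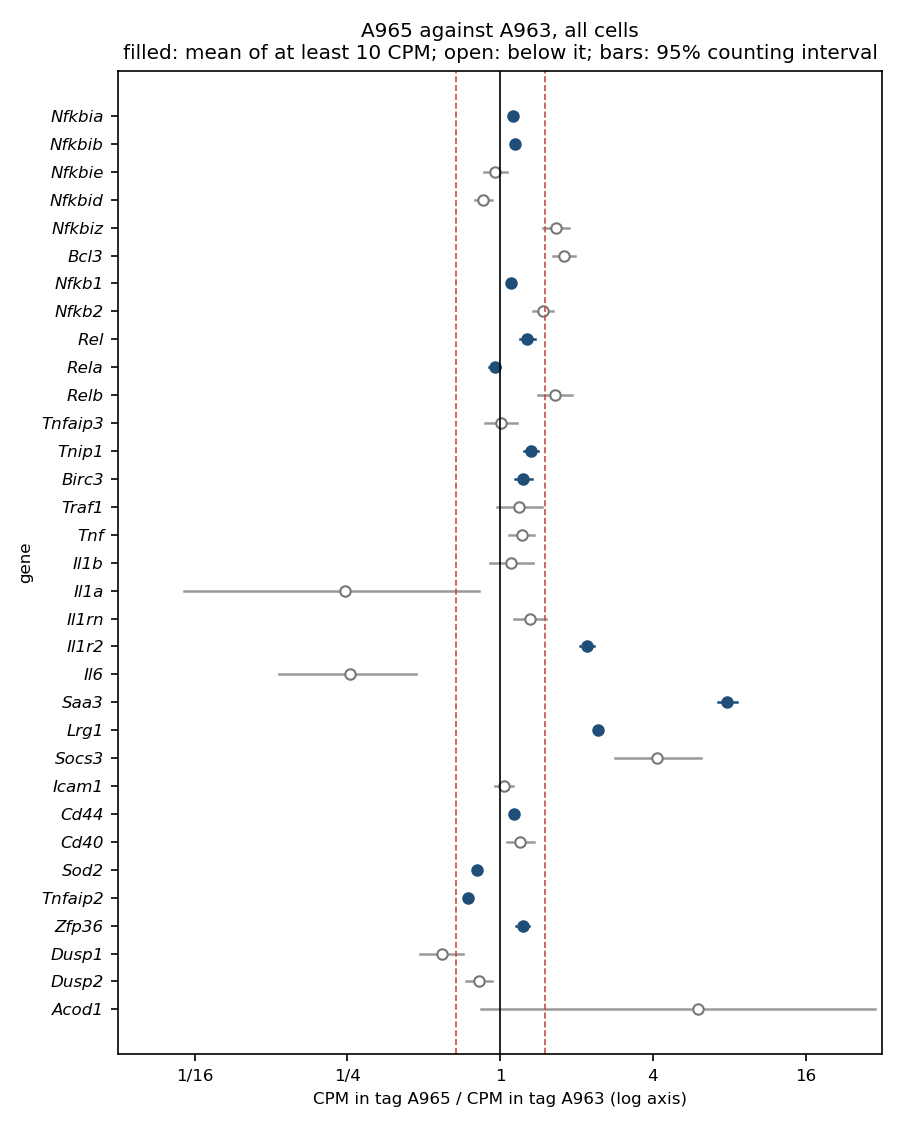
Ratio of CPM in A965 to CPM in A963 over all cells for the 33 genes (log axis), with exact 95% counting intervals; filled points passed the filter on mean level and dashed lines mark 1.5-fold. Saa3, Lrg1 and Il1r2 lie to the right of the line among the filled points, and the bar of Acod1 is drawn only to 30.

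Saa3 was at 11.7 (7.42 to 17.6) CPM in A961, 24.8 (19.6 to 31.04) in A962, 5.096 (4.697 to 5.52) in A963, 52.96 (44.1 to 63.1) in A964 and 40.1 (39.2 to 41.04) in A965. A964 and A965 were the highest and A963 the lowest, and no pair of neighbours in that order had overlapping intervals. The ratio of A965 to A963 was 7.87 (7.24 to 8.56). Lrg1 was at 70.7 (59.5 to 83.5) CPM in A961, 111 (99.2 to 123) in A962, 100.5 (98.7 to 102) in A963, 133 (119 to 149) in A964 and 245 (243 to 248) in A965. A965 stood above the other hashtags and A961 below them, and the ratio of A965 to A963 was 2.44 (2.39 to 2.49). Il1r2 was at 10.2 (6.22 to 15.7), 8.71 (5.74 to 12.7), 11.04 (10.4 to 11.7), 18.6 (13.5 to 25.02) and 24.3 (23.6 to 25.02) CPM in A961 to A965. A965 had the highest value, with an interval that overlapped that of A964, and the other 3 overlapped each other. The ratio of A965 to A963 was 2.2 (2.07 to 2.34). With both hashtags given the same mix of gates it was 1.70, and Il1r2 was no longer called; nor was it after thinning, at 1.83.

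Of the inhibitors and subunits that passed the filter, none was called between A965 and A963. Nfkbia was at 44.3 (35.5 to 54.6), 64.2 (55.6 to 73.7), 77.1 (75.5 to 78.7), 69.5 (59.3 to 80.96) and 86.5 (85.2 to 87.9) CPM in A961 to A965, with A961 the lowest. Its ratio of A965 to A963 was 1.12 (1.09 to 1.15), and 0.929 with the same mix of gates. Nfkbib was at 38.2 (30.01 to 47.8), 33.5 (27.4 to 40.6), 34.8 (33.7 to 35.9), 55.9 (46.8 to 66.3) and 39.8 (38.8 to 40.7) CPM, with the highest value in A964. Nfkbid was at 11.7 (7.42 to 17.6), 12.9 (9.22 to 17.6), 10.3 (9.73 to 10.9), 13.6 (9.27 to 19.1) and 8.83 (8.396 to 9.28) CPM, and the intervals of the 3 small hashtags overlapped each other.

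Nfkb1 was at 63.1 (52.5 to 75.2), 52.2 (44.5 to 60.9), 51.97 (50.7 to 53.3), 76.3 (65.5 to 88.2) and 57.1 (55.99 to 58.2) CPM in A961 to A965, again with the highest value in A964. Nfkb2 was at 8.65 (5.04 to 13.8), 6.45 (3.94 to 9.96), 6.19 (5.75 to 6.65), 11.02 (7.195 to 16.1) and 9.13 (8.69 to 9.59) CPM, with a ratio of A965 to A963 of 1.48 (1.35 to 1.61). Rel was at 24.9 (18.4 to 32.96), 12.9 (9.22 to 17.6), 10.96 (10.4 to 11.6), 11.4 (7.54 to 16.6) and 14.04 (13.5 to 14.6) CPM, and A961 stood above the others. Rela was at 25.9 (19.3 to 34.1), 15.5 (11.4 to 20.5), 22.96 (22.1 to 23.8), 27.96 (21.6 to 35.6) and 21.9 (21.2 to 22.6) CPM, lowest in A962; its ratio of A965 to A963, 0.953 (0.907 to 1.002), had an interval that includes 1.

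Among the remaining genes with at least 10 CPM in a hashtag, Cd44 was at 114 (99.53 to 129.9), 71.9 (62.8 to 82.01), 77.3 (75.7 to 78.9), 126 (112 to 141) and 87.9 (86.6 to 89.3) CPM in A961 to A965. A961 and A964, the hashtags with the largest monocyte gate share (44.1% and 39.7% of cells), were the highest. Sod2 was at 63.1 (52.5 to 75.2), 78.7 (69.1 to 89.2), 80.3 (78.7 to 81.98), 65.2 (55.3 to 76.4) and 65.4 (64.2 to 66.6) CPM, and Tnfaip2 at 34.1 (26.4 to 43.3), 32.9 (26.8 to 39.9), 41.1 (39.99 to 42.3), 45.8 (37.5 to 55.2) and 30.7 (29.9 to 31.5) CPM. Both were lower in A965 than in A963, at ratios of 0.814 (0.792 to 0.836) and 0.747 (0.718 to 0.776). The erythroid gate, where both were highest, held 12.7% of the cells of A963 and 2.68% of those of A965; with the same mix of gates the ratios were 1.0 and 1.11.

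Tnip1 was at 18.3 (12.8 to 25.4), 16.4 (12.2 to 21.6), 12.7 (12.03 to 13.3), 17.4 (12.5 to 23.6) and 16.7 (16.1 to 17.4) CPM in A961 to A965. Birc3 was at 15.3 (10.3 to 21.8), 9.03 (6.001 to 13.1), 8.96 (8.42 to 9.51), 13.98 (9.62 to 19.6) and 11.05 (10.6 to 11.5) CPM. Both were lower in A963 than in A965, by ratios of A965 to A963 of 1.32 and 1.23. Icam1 was at 7.63 (4.27 to 12.6), 10.97 (7.59 to 15.3), 7.99 (7.49 to 8.52), 11.4 (7.54 to 16.6) and 8.27 (7.85 to 8.71) CPM, with intervals that overlapped throughout. Zfp36 was at 13.7 (9.05 to 19.99), 14.2 (10.3 to 19.1), 14.2 (13.6 to 14.9), 25.4 (19.4 to 32.7) and 17.5 (16.9 to 18.1) CPM, with the highest value in A964.

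**Figure D3:**
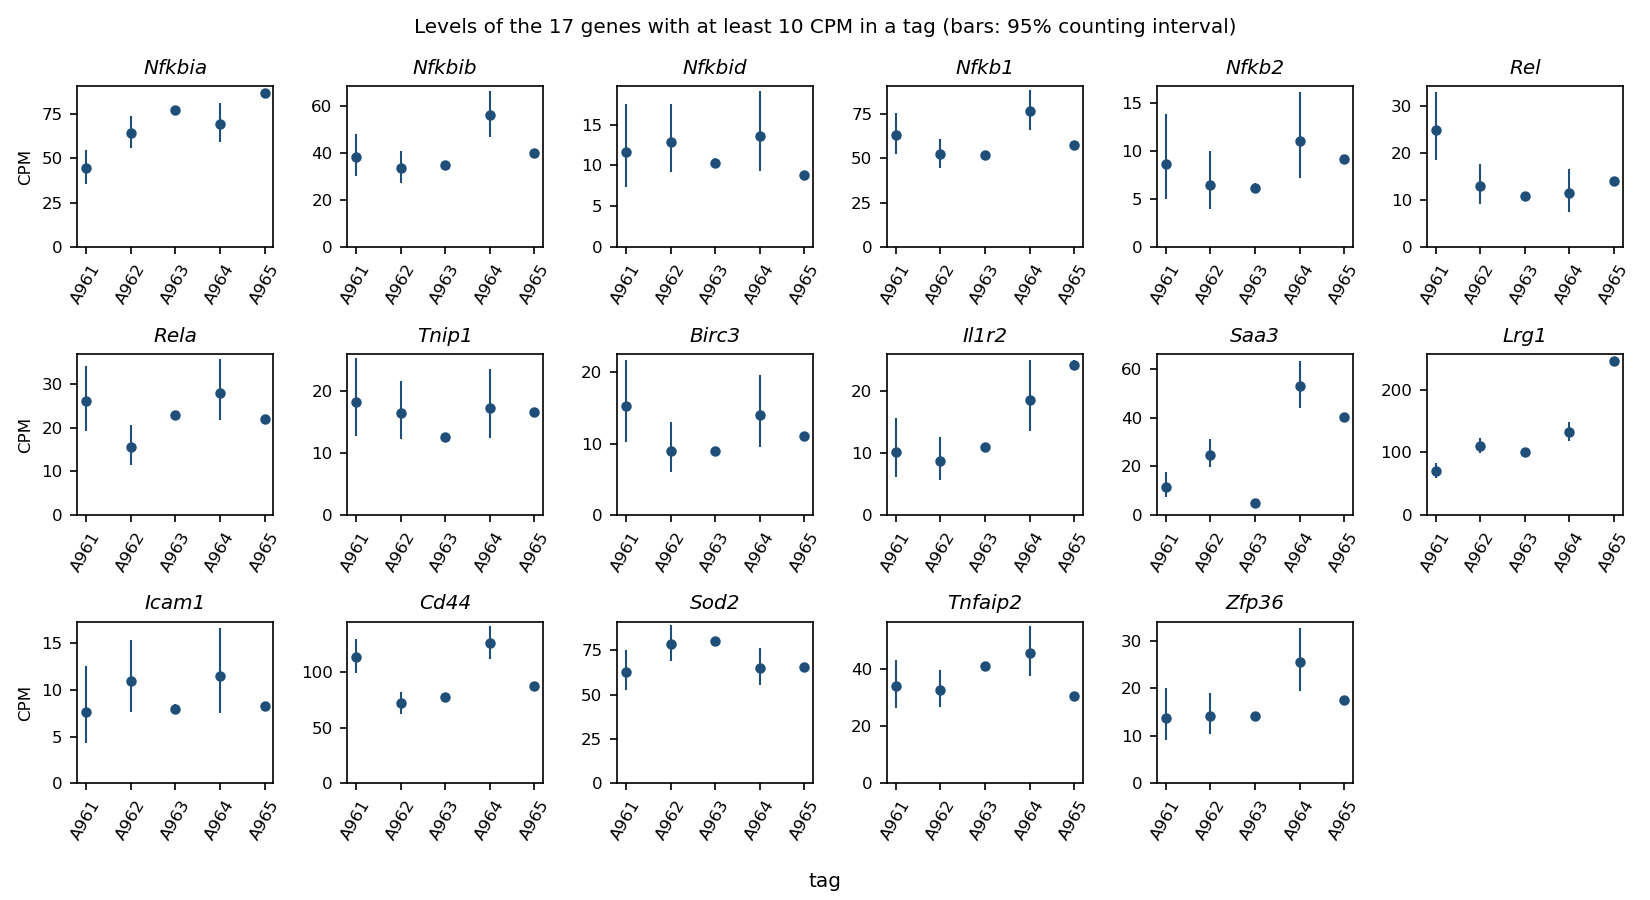
CPM of the 17 genes with at least 10 CPM in a hashtag, one panel a gene and one point a hashtag, with exact Poisson 95% intervals. Saa3 is high in A964 and A965, Lrg1 in A965, and the intervals of the 3 hashtags with about 100 cells are wide.

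The other 16 genes stayed under 10 CPM in every hashtag. Socs3 had 1.12 CPM in A965 against 0.271 in A963, a ratio of 4.14 (2.84 to 6.21), and 3.40 with both hashtags given the same mix of gates. In the monocyte gate it had 40 counts in A965 and 1 in A963, a ratio of 22.01 (3.73 to 891). Bcl3, Nfkbiz and Relb had ratios of A965 to A963 of 1.78 (1.61 to 1.98), 1.66 (1.48 to 1.87) and 1.64 (1.41 to 1.92). With the same mix these ratios were 1.45, 1.16 and 1.29. Il6 was lower in A965, at 0.091 against 0.355 CPM, from 16 and 42 counts. Dusp1 was lower too, at 1.16 against 1.97 CPM, and at a ratio of 0.908 with the same mix. The ratios of Nfkbie, Tnfaip3, Il1b and Traf1 had intervals that include 1, which does not show that their levels were equal.

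Within the 5 gates with at least 100 cells of both hashtags, Saa3 and Lrg1 were again the genes called higher in A965. In the granule-committed progenitor gate 13 genes were tested and those 2 were called (0.872% of all genes tested); the median log2 ratio was 0.15 over the 13 and 0.04 over all. In the secondary granule neutrophil gate the same 2 of 13 were called (1.06%), with medians of -0.05 and -0.02. In the monocyte gate the same 2 of 18 were called (2.34%), with medians of 0.11 and -0.06. In the erythroid gate 0 of 7 were called (0.505%; medians 0.19 and 0.04) and in the plasmacytoid dendritic gate 0 of 16 (1.22%; medians -0.10 and -0.10). A gene was called lower in the plasmacytoid gate alone, 1 of 16 (Rela, against 2.51%), and 0 were in the erythroid (0.295%), granule-committed (0.273%), secondary granule (0.65%) and monocyte (0.711%) gates.

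Saa3 in the granule-committed gate was at 33.98 (32.5 to 35.5) CPM in A965 and 5.04 (4.26 to 5.92) in A963, a ratio of 6.74 (5.704 to 8.02). In the secondary granule gate it was at 52.2 (50.3 to 54.2) and 6.23 (5.34 to 7.23) CPM, a ratio of 8.38 (7.19 to 9.82). In the monocyte gate it was at 60.5 (57.5 to 63.6) and 8.25 (6.81 to 9.91) CPM, a ratio of 7.33 (6.06 to 8.94). Saa3 was thus higher in A965 in these 3 gates, at ratios whose intervals overlapped. The late neutrophil gate, too small in A963 for a call, held Saa3 at 10.8 CPM in 161 cells of A965 and 5.1 in 42 of A963. That difference was smaller than in the 3 gates. In the erythroid gate Saa3 was at 4.2 and 2.15 CPM, a ratio of 1.95 (1.19 to 3.12). In the plasmacytoid dendritic gate it was at 3.44 and 4.001 CPM, a ratio of 0.86 (0.372 to 1.97). Both gates were under the filter.

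After thinning, Saa3 was found in 19.98% of monocyte gate cells of A965 and 4.42% of A963 (without thinning 29.2% and 8.02%). In the secondary granule gate the thinned shares were 22.8% and 2.71%, and without thinning 36.6% and 5.28%. The erythroid gate, with median depths of 43249 and 41228 counts, gave 2.68% and 1.83%, while median depths were 22811.5 and 20463 counts in the monocyte gate and 26648 and 17161 in the secondary granule gate. So most cells of A965 in the monocyte and secondary granule gates had no Saa3 count, with or without thinning. Without thinning, monocyte gate cells with a count held 5.49 on average in A965 and 2.35 in A963.

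**Figure D4:**
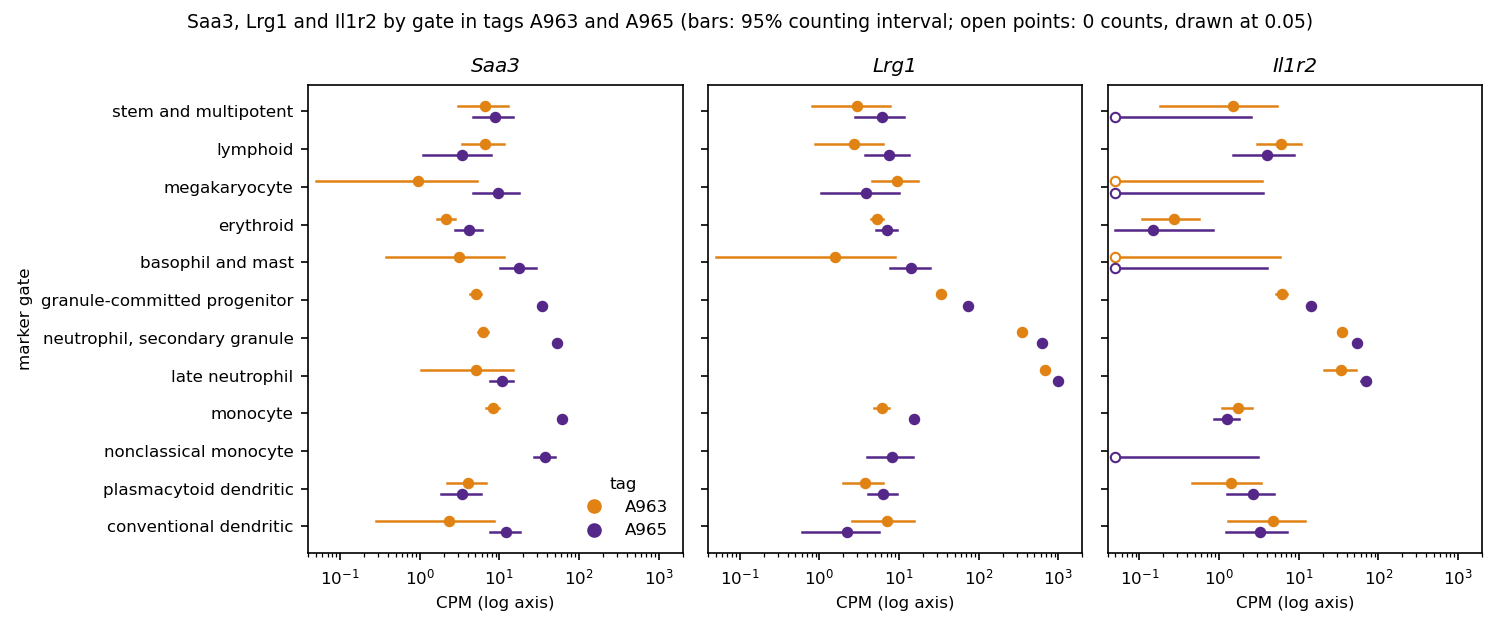
CPM of Saa3, Lrg1 and Il1r2 (panels, log axis) in each marker gate for A963 and A965, with exact Poisson 95% intervals; gates with fewer than 40 cells of a hashtag are not drawn and a count of 0 is an open point at 0.05. Saa3 of A965 lies right of A963 in the granule-committed, secondary granule and monocyte gates, and Lrg1 and Il1r2 are highest in the neutrophil gates of both hashtags.

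Lrg1 in the granule-committed gate was at 72.5 (70.4 to 74.8) CPM in A965 and 33.6 (31.6 to 35.8) in A963, a ratio of 2.16 (2.01 to 2.31). In the secondary granule gate it was at 631 (624 to 637) and 354 (347 to 361) CPM, a ratio of 1.78 (1.74 to 1.82). In the monocyte gate it was at 15.4 (13.9 to 17.05) and 6.03 (4.81 to 7.46) CPM, a ratio of 2.56 (2.02 to 3.28). Lrg1 was therefore higher in A965 in the same gates as Saa3, from levels that differed widely between gates. In the erythroid gate Lrg1 was at 7.05 CPM in A965 and 5.31 in A963, and in the plasmacytoid dendritic gate at 6.35 and 3.72. Both were under the filter, and the monocyte level of A963 was near these. In the late neutrophil gate, too small in A963 for a call, it was at 988 (954 to 1022) CPM in 161 cells and 680.3 (615 to 750.4) in 42. Il1r2 was at 53.7 and 35.3 CPM in the secondary granule gate, a ratio of 1.52 (1.42 to 1.64), and at 14.1 and 6.09 CPM in the granule-committed gate, a ratio of 2.32 (1.97 to 2.74).

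Markers of neutrophils and macrophages moved with these genes in some gates. In the monocyte gate the summed level of the 7 secondary granule markers was 2221 CPM in A965 and 1235 CPM in A963, with 4 of the 7 higher and none at 0, and that of the 7 late neutrophil markers was 466 and 182 CPM, with 6 higher and none at 0. All 7 macrophage markers were also higher in the monocyte gate of A965, with sums of 102 and 65.5 CPM. In the granule-committed gate the secondary granule sum was 6327 and 5261 CPM, with all 7 higher, and the late neutrophil sum 74.5 and 43.7 CPM, with 6 of 7 higher. In the secondary granule gate the secondary granule sum was lower in A965, at 114014 against 133666 CPM, with 3 of 7 higher, while the late neutrophil sum was 299.8 against 178 CPM, with 6 of 7 higher. The part of these markers in the ratios of Saa3 and Lrg1 was not tested. The secondary granule sum in the erythroid gate was 1032 and 1007 CPM.

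Rela in the plasmacytoid dendritic gate was at 17.2 (13.3 to 21.9) CPM in A965 and 31.7 (26.1 to 38.2) in A963, a ratio of 0.542 (0.393 to 0.743), from 217 and 265 cells. The call was lost under 4 of 9 alternative settings (median-of-ratios scaling, thinning, and a stricter or a looser gate), with ratios of plain CPM from 0.539 to 0.671 over the 9. The calls of Saa3 and Lrg1 within gates were kept under all 9.

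In the 3 hashtags of about 100 cells, 15 genes reached 10 CPM in A961, 14 in A962 and 17 in A964. The share of all genes that did so was not counted. Since these hashtags may hold cells of the large pools, their values are not shown to be those of separate sorts. Within the monocyte gate Saa3 was at 10.2 (4.403 to 20.1) CPM in A961 (30 cells), 56.4 (36.1 to 83.9) in A962 (18 cells) and 80.4 (61.5 to 103) in A964 (29 cells). The intervals of A962 and A964 overlapped that of A965, at 60.5 (57.5 to 63.6) CPM, and the interval of A961 that of A963, at 8.25 (6.81 to 9.91) CPM. Xist divided the hashtags differently, with A962 on the side of A961 and A963. Lrg1 in that gate was at 7.65 (2.81 to 16.6) CPM in A961, 21.1 (9.66 to 40.1) in A962 and 22.4 (13.1 to 35.9) in A964. Nfkbia in it was at 33.1 (21.7 to 48.6), 68.1 (45.6 to 97.8) and 64.6 (47.8 to 85.4) CPM in the same order. Cd44 there was at 136 (112 to 165), 113 (83.1 to 149) and 178 (149 to 211) CPM, highest in A964. The intervals cover counting error only.

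Of 66 other genes of the pathway, listed by role, 60 had a row and 32 passed the filter on mean level. Clec4e (Mincle, a receptor for damaged cells and mycobacteria) was higher in A965, at 15.2 against 6.73 CPM, a ratio of 2.26 (2.09 to 2.45). It was the 1 of 32 called higher, against 1.86% of all genes tested, and 0 were lower, against 2.17%. The median log2 ratio over the 32 was 0.15. None of the tested IKK complex genes and upstream kinases (5), adaptors (10), receptors (3) or ubiquitin-editing genes (6) was called, with median log2 ratios of -0.04, 0.17, 0.33 and 0.10. Among the other targets, 1 of 8 was called. Within gates, Pim1, a kinase induced by cytokines, was the 1 of 30 called higher in the granule-committed gate (0.872% of all genes), at 52.3 against 26.4 CPM. Zfp36l1, a relative of Zfp36, was the 1 of 34 in the monocyte gate (2.34%), at 17.4 against 7.61 CPM. A single call among so few genes is no result about the list. Over all cells neither was called, at ratios of 1.52 and 0.738.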

How the data were processed

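The authors deposited raw counts, whole numbers for each gene in each cell, from 1 library (BD Rhapsody capture and TAS-Seq amplification, per the labels). The aligner, annotation and counting tool are not given in the sources used here; the submitters' processing notes name GRCm38, Seurat 4.2.0 and R 4.2.1 but not what each was used for. Values of 2 were 54.7% as many as values of 1, so repeated reads of 1 molecule may be counted and intervals may be too narrow.

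Of 10731 cells, 10535 carried 1 hashtag in their name; 190 named doublets and 6 with no detected hashtag were not used. A filter on cells (500 genes or more, a mitochondrial share of 20% or less) took out 7. A963 then held 118142775 counts and A965 175876760, against 1965440 in A961, 3100547 in A962 and 2360420 in A964. Scrublet (scanpy 1.11.5) called 223 cells (2.12%), which stayed in. No barcode was repeated among the cells of the table.

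A gate score was the mean of its markers' log2(1 + counts per 10000), each divided by its 99.5th percentile. A cell entered the gate with the highest score, at least 0.2 and 0.05 above the next; a late neutrophil score of 0.25 split the neutrophil gate. These thresholds were set after the scores had been seen. Cells scoring near them numbered 1667.

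Gene counts were added up within a hashtag or gate and divided by its total (CPM). Levels have exact Poisson, shares exact Clopper-Pearson and ratios exact conditional 95% intervals. Only the ratio intervals and calls were run on simulated data, which were drawn as Poisson counts. Such counts lack any further spread of the real ones, so that run cannot show how well the intervals hold here. For thinning, cells were drawn down to 8800 counts, which left out 0 cells since the smallest total was 8822. The genes and lists were chosen with earlier results of these data known. All 34 genes are accounted for: hashtag values are printed from 10 CPM in a hashtag, and the first 3 gates and the erythroid gate from 10 CPM in a gate. A planned search of protein sequences was not used here.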

Additional observations from a re-analysis of the deposited data

Results flagged for a closer look

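Among genes with a mean of at least 10 CPM in the gate, the ratio of A965 to A963 lay on opposite sides of 1 in different gates for 4, by at least 1.2-fold each way and with a counting interval that excludes 1. The difference between the gates was not tested, since each gate and hashtag is 1 sum of cells. The share of all genes that met the same rule was not counted, so these 4 are no result about the list. Rela was at a ratio of 1.25 (1.12 to 1.39) in the granule-committed progenitor gate, 0.828 (0.725 to 0.946) in the monocyte gate and 0.542 (0.393 to 0.743) in the plasmacytoid dendritic gate. Rel was at 1.203 (1.06 to 1.37) in the granule-committed progenitor gate and 0.674 (0.461 to 0.981) in the plasmacytoid dendritic gate. Sod2 was at 1.26 (1.18 to 1.35) in the erythroid gate and 0.648 (0.519 to 0.806) in the plasmacytoid dendritic gate. Zfp36 was at 1.41 (1.23 to 1.62) in the monocyte gate and 0.775 (0.699 to 0.859) in the secondary granule neutrophil gate. In 3 of the 4 genes the low side was the plasmacytoid dendritic gate, the smallest of the 5 gates compared, with 265 cells of A963 and 217 of A965. Below that level, Il1rn was at 5.18 (2.85 to 10.3) in the monocyte gate and 3.85 (2.04 to 8.002) in the granule-committed gate but 0.724 (0.602 to 0.873) in the secondary granule gate. Il1b was at 7.26 (2.96 to 23.1) in the monocyte gate but had 0 counts in the erythroid gate of A965 and 25 in that of A963. Those erythroid counts lay in few cells, as thinning left Il1b in 0.264% of that gate's cells over all hashtags.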

How the results depend on the processing

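The alternatives were other scaling, 1 CPM added in place of 10, no filter on low values or on cells, thinning, removal of Scrublet doublets, other totals, the same mix of gates, and stricter or looser gates. Of the values tried under alternatives, 211 stayed the same, 52 moved and 0 changed direction past a call. Ratios of A965 to A963 of some uncalled genes crossed 1 between settings. Examples are Tnf, from 0.959 to 1.28, and Zfp36, from 0.978 to 1.297. The count of other pathway genes higher in A965 was 1, and became 3 with 1 CPM added and 2 after thinning. The count of genes lower within gates was 1, and became 0 with median-of-ratios scaling, 4 with 1 CPM added, 0 after thinning and 0 with stricter gates. The looser gate also gave 1, but a different gene. Of 33 genes, 9 had the same highest gate in A963 alone, where the nonclassical monocyte and late neutrophil gates held fewer than 50 cells and were left out. The count of genes near background was 1 with the highest background gene and 0 with the median one; the second-highest, added after the Gfap level had been seen, gave 1. No paired analysis was possible because there was 1 library and no replicate numbers. Depth limits the hashtags with about 100 cells most: 3 counts were 1.53 CPM in A961, 0.968 in A962 and 1.27 in A964.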
